A study of Homo sapiens with 12 samples.

Results

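The comparison described here was that of thyroxine (T4) with solvent control (DMSO) in human cells at day 19 of a differentiation towards hepatocytes. Its members were the 2 libraries of the group D19_T4 and the 2 libraries of the group D19_ctrl, 4 of the 12 RNA sequencing libraries of the series, chosen by their labels. All cells were of H9, a human embryonic stem cell line in wide use, and the labels call the day 19 cells hepatocytes. The hormone groups received 30 nM T4 or, in a further group used here for comparison, 30 nM T3, and the control cells received 0.1% DMSO. No genetic change was labelled in any group. The start and length of the exposure and the solvent of the hormone cells are not given in the labels, and no label states that the paired libraries in each group are independent cultures. The p-values below therefore measure the spread among libraries, and that spread may be technical. Of 23922 genes in the files, 17084 had enough counts to be tested.

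T4 is the main secreted thyroid hormone and largely a prohormone. The deiodinases DIO1 and DIO2 convert it to T3, which binds the nuclear receptors THRA and THRB with high affinity, and DIO3 inactivates both hormones. The receptors bind DNA mostly as heterodimers with retinoid X receptors and change the transcription of nearby genes. In the liver, thyroid hormone is known for its action on lipid, cholesterol and carbohydrate metabolism, and the liver also makes the plasma proteins that carry the hormone.

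The library totals of the series lay between 18363549 and 19306181 expected counts. The labelled cell type was checked against hepatocyte markers. In the DMSO libraries the fetal liver protein AFP reached 29469 and 31611 CPM (counts per 1000000 counts), the apolipoprotein gene APOA1 13489 and 14594 CPM, and the protease inhibitor gene SERPINA1 2825 and 3198 CPM. Markers of mature hepatocytes were low in the same libraries. ALB, the gene of serum albumin, had 15.9 and 18.5 CPM, TAT, which encodes tyrosine aminotransferase, 2.28 and 1.95 CPM, and the drug-metabolising enzyme gene CYP3A4 0.596 and 0.487 CPM. CYP7A1, the rate-limiting enzyme of bile acid synthesis, was at 0 in both DMSO libraries and was not tested. The label hepatocyte therefore held in the DMSO libraries for fetal and secretory liver transcripts, while defining transcripts of the mature cell were low or absent.

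With T4, transcripts of most liver secretory and metabolic lists were lower. Most transcripts of trophoblast and amnion, keratins, interferon response, amino acid supply, cell cycle inhibitors and p53 targets were higher. A gene was called when its adjusted p was at most 0.05 (edgeR quasi-likelihood test on the 6 day 19 libraries, Benjamini-Hochberg adjustment). By this rule 6352 genes were called, 37.2% of those tested, with 3099 higher (18.1%) and 3253 lower (19%) in T4 cells. Large changes were more often decreases. Of the called genes, 719 were at least 2-fold higher and 1100 at least 2-fold lower, 148 were at least 4-fold higher and 311 at least 4-fold lower, and 27 were at least 8-fold higher and 108 at least 8-fold lower. The values of the T4 and DMSO libraries did not overlap for 69.3% of all tested genes. On the authors' FPKM scale the split differed. limma on log2(FPKM + 0.1) called 6751 genes, 67.2% of them higher, against 48.8% in the count fit. It placed the median of all genes at 0.13 (log2), where the count fit placed it at 0.01. The FPKM fits used no library scaling factors (TMM). In the count fit these factors were 1.045 and 1.043 for the T4 libraries and 0.956 and 0.960 for the DMSO libraries. Their part in the different split was not tested. Without the first T4 library, 3947 genes were called.

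**Figure D1:**
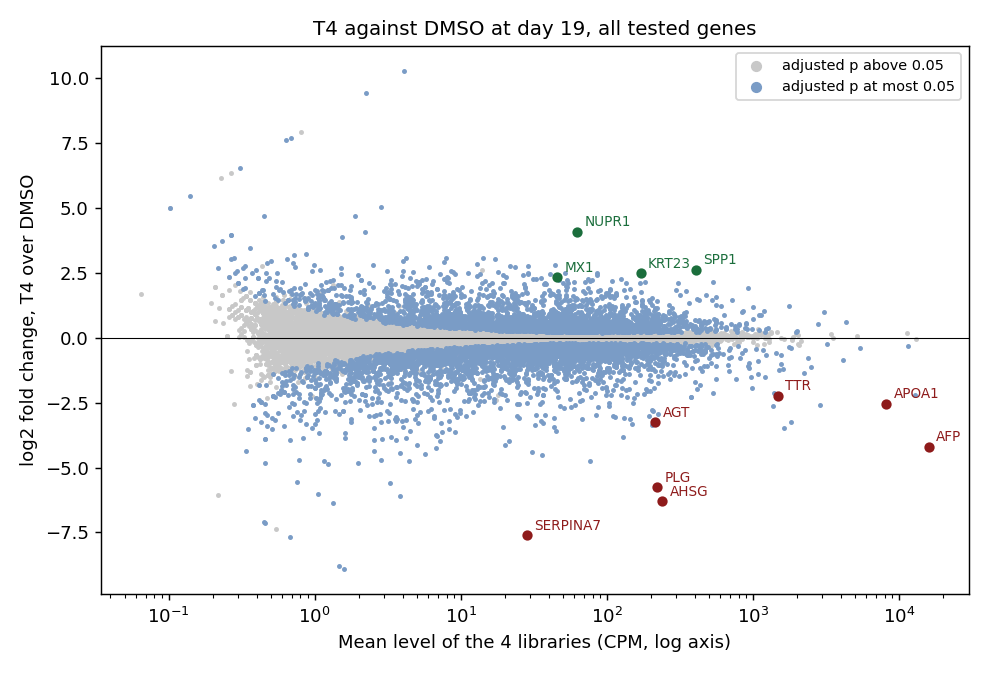
Each point is 1 of the 17084 tested genes, placed by its mean level over the 4 libraries (CPM, log axis) and its log2 fold change of T4 over DMSO; blue points passed the adjusted p of 0.05, and named points are genes given in the text. The fitted fold change of a gene with a group at 0, such as F13B or MTPN, depends on the prior count. SERPINA7, AHSG and AFP, which encode secreted liver proteins, lie far below 0.

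The deepest decrease, among called genes with a mean of at least 5 CPM in a group and no overlap of libraries, belonged to the main carrier of T4 in plasma. SERPINA7 (chrX:106032435-106038727, GRCh38), which encodes thyroxine-binding globulin, had 0.204 and 0.358 CPM in the T4 libraries, against 55.1 and 57.6 CPM in the DMSO libraries. It was thus close to absent with T4 and 196-fold lower (log2 fold change -7.61 ± 0.19 SE, adjusted p = 4.92e-08). AHSG, the gene of the fetal plasma protein fetuin-A, had 6.37 and 5.73 CPM with T4 and 442 and 508 CPM with DMSO (-6.29 ± 0.16, adjusted p = 2.03e-08). AFP (chr4:73436221-73456174, GRCh38) had 1506 and 1821 CPM with T4 and 29469 and 31611 CPM with DMSO and fell 18.4-fold (-4.20 ± 0.19, adjusted p = 4.46e-07). For these genes both T4 libraries lay far below both DMSO libraries. Of the 27 genes listed as plasma carriers and transport proteins, 24 were tested, 23 were called lower and 0 higher, and their median log2 fold change was -2.93, against 0.01 over all tested genes. The others called lower included ALB (2.804 and 2.25 CPM with T4, 15.9 and 18.5 CPM with DMSO), the heme carrier gene HPX (47.8 and 55.3 CPM with T4, 357 and 356 CPM with DMSO), the angiotensin precursor gene AGT (39.05 and 42.1 CPM with T4, 378 and 401 CPM with DMSO) and the iron carrier gene TF (11.5 and 14.5 CPM with T4, 58.3 and 62.1 CPM with DMSO). No T4 library reached the level of a DMSO library for any of them, and the haptoglobin gene HP was 2.08-fold lower. TTR, the second T4 carrier, had 504 and 540.4 CPM with T4 and 2288 and 2598 CPM with DMSO and fell 4.68-fold (-2.23 ± 0.15, adjusted p = 3.58e-06).

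The genes of lipoprotein particles fell with the carriers. 12 of 16 tested members were lower and 1 higher, with a median of -1.79. APOA4, found on chylomicrons and high-density lipoprotein, had 4467 and 4727 CPM in T4 libraries and 20604 and 22056 CPM in DMSO libraries (-2.21 ± 0.10, adjusted p = 5.09e-07). APOA1, the structural protein of high-density lipoprotein, fell to 2330.1 and 2498 CPM with T4, against 13489 and 14594 CPM with DMSO (-2.54 ± 0.12, adjusted p = 6.05e-07). APOB, the scaffold of low-density lipoprotein, had 698 and 940.2 CPM with T4 and 5618 and 4360.2 CPM with DMSO. Neither gene had a T4 library within the range of the DMSO libraries. APOC3, an inhibitor of lipoprotein lipolysis, and APOC2, its activator, were 9.61-fold and 6.42-fold lower.

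Clotting, complement and plasma protease inhibitor genes followed the same direction. Of 19 tested clotting and fibrinolysis genes, 16 were lower and 0 higher, with a median of -1.70. PLG, the gene of the fibrin-dissolving zymogen plasminogen, had 7.54 and 8.39 CPM with T4 and 418 and 453 CPM with DMSO (-5.77 ± 0.13, adjusted p = 1.2e-08). F13B, a subunit of the fibrin-stabilising factor, had no count in either T4 library and 108 counts over the DMSO libraries. Against a floor of 3 counts over the group it was at least 35.03-fold lower, and the list's median is the same with F13B at that bound. The fibrinogen chains moved unequally. FGB had 1218 and 1305 CPM with T4 and 3074 and 3429.8 CPM with DMSO, and FGG 508 and 496 CPM with T4 and 1365 and 1519 CPM with DMSO, both called lower. FGA had 1967 and 2122 CPM with T4 and 2251 and 2257 CPM with DMSO and was not called (adjusted p = 0.443). Of 15 tested plasma protease inhibitor genes, 12 were lower and 2 higher, with a median of -2.32. SERPINA1, the gene of alpha-1-antitrypsin, fell to 269.7 and 277 CPM, against 2825 and 3198 CPM with DMSO, and the cortisol carrier gene SERPINA6 to 0.153 and 0.0512 CPM, against 7.26 and 7.79 CPM with DMSO. The exceptions called higher, both at low levels, were the antichymotrypsin gene SERPINA3 (5.91 and 5.94 CPM with T4, 2.55 and 2.76 CPM with DMSO) and the pregnancy zone protein gene PZP (0.765 and 0.972 CPM with T4, 0 and 0.0541 CPM with DMSO). Of 19 tested complement genes, 12 were lower and 0 higher, with a median of -0.82; the central component gene C3 had 10.7 and 9.62 CPM with T4 and 61.7 and 57.9 CPM with DMSO.

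These decreases changed the make-up of the libraries. A set of 96 plasma protein genes held 2.04% and 2.18% of all expected counts in the T4 libraries, against 9.41% and 10.04% in the DMSO libraries. AFP alone held 0.157% and 0.190% of counts with T4, and 2.82% and 3.03% with DMSO. In bulk libraries such as these, fewer cells of a type and less RNA per cell cannot be told apart.

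**Figure D2:**
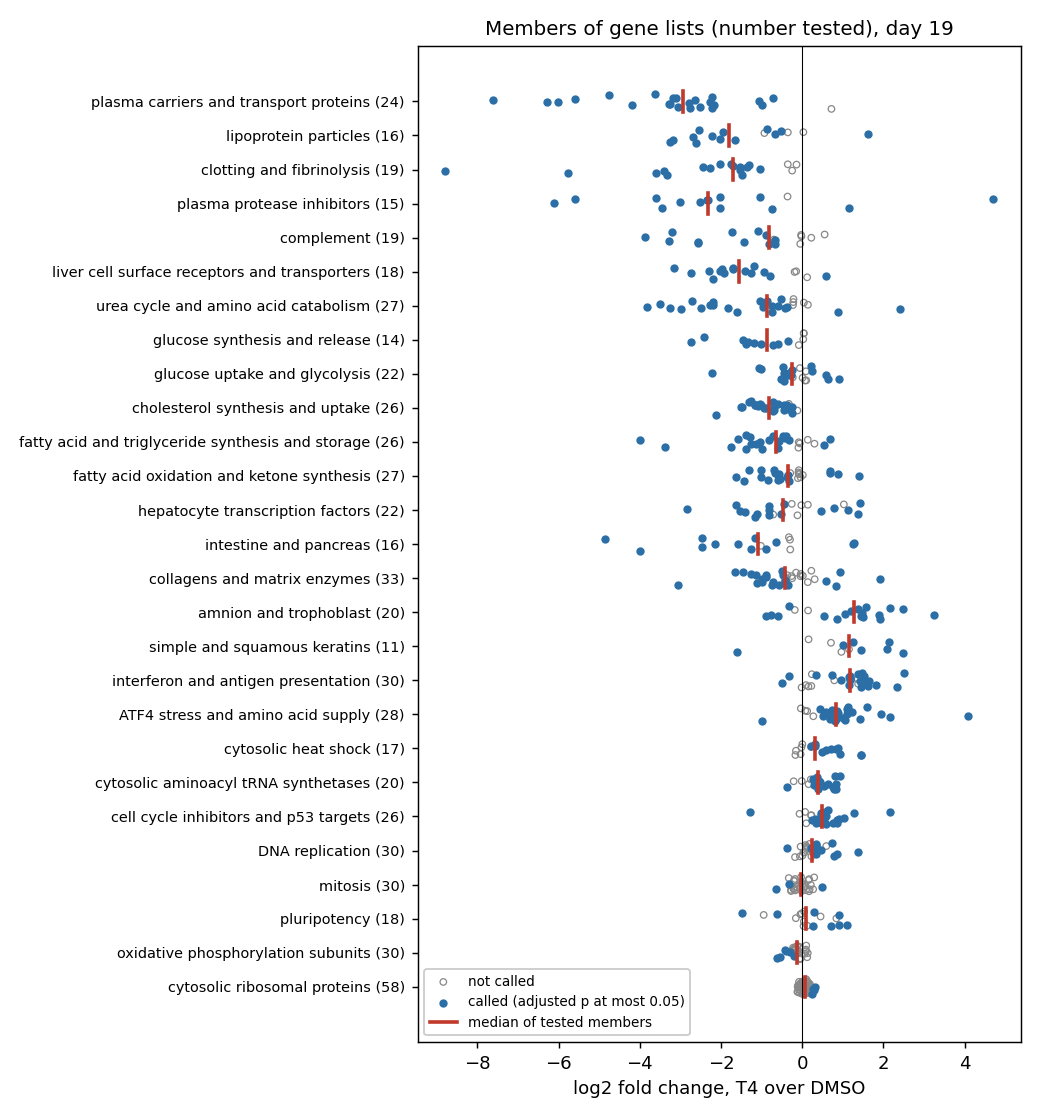
Each row is a gene list with its number of tested members, and each point a member at its log2 fold change of T4 over DMSO; filled points were called, and the red bar is the median. The plasma protein lists lie left of 0 with medians between -2.93 and -0.82, while amnion and trophoblast, keratin and interferon genes lie mostly right of 0.

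Transcription factors that define hepatocytes changed in both directions. Of 22 tested factors, 11 were lower and 5 higher, with a median of -0.48. HNF4A, a central nuclear receptor of the hepatocyte programme, had 71.4 and 84.5 CPM with T4 and 216 and 200.1 CPM with DMSO (-1.42 ± 0.11, adjusted p = 9.1e-06). The fatty acid sensor PPARA had 52.1 and 62.7 CPM with T4 and 194 and 160.5 CPM with DMSO (-1.63 ± 0.11, adjusted p = 3.88e-06). Both fell, with no overlap between the groups. FOXA2, the early pioneer factor, had 32.4 and 32.1 CPM with T4 and 34.9 and 35.1 CPM with DMSO and was not called (adjusted p = 0.392). Among the factors called higher were CEBPB (329 and 311 CPM with T4, 122 and 117 CPM with DMSO) and TBX3 (217 and 232 CPM with T4, 92.5 and 82.00 CPM with DMSO), a T-box factor of the early liver bud. Hepatoblast and fetal liver genes were likewise mixed, with 6 higher and 9 lower of 22. The fetal surface proteoglycan GPC3 fell to 122 and 132 CPM, against 602 and 648 CPM with DMSO, while KRT18, a keratin of simple epithelia, rose to 2636 and 2349.9 CPM, against 1023 and 1090.3 CPM with DMSO. Receptors and transporters of the liver cell surface were lower in 14 and higher in 1 of 18 genes, with a median of -1.56. ASGR1, the asialoglycoprotein receptor of hepatocytes, was among them, with 27.9 and 29.4 CPM with T4 and 105 and 119 CPM with DMSO.

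Most transcripts of the urea cycle, amino acid catabolism and glucose synthesis were also lower with T4. In the urea cycle and amino acid catabolism, 20 of 27 genes were lower and 2 higher, with a median of -0.86. CPS1, the entry enzyme of the urea cycle, had 14.99 and 19.3 CPM with T4 and 243 and 240.3 CPM with DMSO and fell 14.1-fold (-3.82 ± 0.16, adjusted p = 3.63e-07). AGXT, which detoxifies glyoxylate, and ASS1, the argininosuccinate synthase, were 7.86-fold and 3.53-fold lower. Genes of glucose synthesis and release fell in 10 of 14 cases and rose in 0, with a median of -0.87. Their members included FBP1 (21.00 and 22.1 CPM with T4, 106 and 123 CPM with DMSO), the glucose carrier SLC2A2 (2.09 and 2.303 CPM with T4, 14.5 and 14.8 CPM with DMSO) and PCK1 (167 and 167 CPM with T4, 465 and 453 CPM with DMSO). Glycolytic genes split into 5 higher and 11 lower of 22, with 6 lower on log2(FPKM + 1) and 7 without the second T4 library, and 3 higher without any 1 of the 4 libraries. The hexokinase HK1 had 302 and 283 CPM with T4 and 166 and 147 CPM with DMSO and rose (0.90 ± 0.10, adjusted p = 8.25e-05). LDHA, the lactate dehydrogenase subunit, had 152 and 142 CPM with T4 and 286 and 313 CPM with DMSO and fell (-1.03 ± 0.08, adjusted p = 7.93e-06).

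Transcripts of lipid metabolism showed their most uniform change in cholesterol synthesis and uptake, where 24 of 26 genes were lower and 0 higher, with a median of -0.81. MSMO1, a sterol demethylase, had 193 and 208 CPM with T4 and 826 and 915 CPM with DMSO (-2.12 ± 0.10, adjusted p = 5.9e-07). Its T4 libraries lay far below its DMSO libraries. Of the 13 genes of sterol efflux and sensing, 8 fell and 1 rose; the sterol exporters ABCG8 and ABCG5, which lie side by side and overlap, were 21.7-fold and 15.04-fold lower, and LIPA, the lysosomal acid lipase, 8.16-fold. Fatty acid and triglyceride synthesis and storage genes were lower in 19 and higher in 2 of 26, with a median of -0.65. DGAT2, which makes triglycerides, had 32.9 and 39.00 CPM with T4 and 375 and 372 CPM with DMSO, and SCD, the stearoyl desaturase, 374 and 422 CPM with T4 and 1012 and 940.3 CPM with DMSO. Fatty acid oxidation genes fell in 15 and rose in 4 of 27, with a median of -0.34. The carnitine palmitoyltransferase CPT1A went against the majority (82.9 and 85.8 CPM with T4, 54.5 and 50.7 CPM with DMSO), as did the fatty acid binding protein gene FABP1 (223 and 235 CPM with T4, 85.8 and 88.9 CPM with DMSO), both called higher.

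Bile acid synthesis and transport genes were lower in 10 and higher in 1 of 16, with a median of -0.86, and the bile acid exporter subunit SLC51A was 4.19-fold lower. Phase 1 drug-metabolising genes were evenly split, with 7 higher and 7 lower of 25, but 3 lower without the first T4 library. CYP3A4 stayed below 1 CPM in all 4 libraries (0.510 and 0.563 CPM with T4, 0.596 and 0.487 CPM with DMSO), a level at which no difference was detectable (adjusted p = 0.985). Phase 2 genes fell in 13 and rose in 2 of 20. The members that rose were UGT1A1 and UGT1A6, from the bilirubin and drug glucuronidation locus whose transcripts share their last exons, so that the division of reads between them is uncertain. SLC22A7, an organic anion carrier of liver and kidney, had 5.51 and 5.43 CPM with T4 and 147 and 149 CPM with DMSO, a 27.02-fold decrease (-4.76 ± 0.09, adjusted p = 3.74e-09). Genes of iron and heme moved in both directions, 6 higher and 8 lower of 19; the iron exporter SLC40A1 had 503 and 547 CPM with T4 and 228 and 191 CPM with DMSO, and HMOX1, which breaks down heme, 306 and 303 CPM with T4 and 105 and 107 CPM with DMSO, and both rose. In the retinoid list 8 of 19 genes were lower and 2 higher, with 5 lower when either T4 library was left out and 4 on log2(FPKM + 0.1). RBP4, the plasma retinol carrier, fell to 369 and 395 CPM, against 2294 and 2473 CPM with DMSO.

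Transcripts of the machinery that handles thyroid hormone changed as well. Of 25 tested receptors, deiodinases, transporters and carriers, 6 were higher and 11 lower, with a median of -0.21, and 7 were lower without the first T4 library. DIO3 (chr14:101561495-101563452, GRCh38), the inactivating deiodinase, had 527 and 562 CPM with T4 and 170.2 and 142 CPM with DMSO and rose 3.49-fold (1.80 ± 0.12, adjusted p = 3.11e-06). DIO1, the activating deiodinase of liver, had 38.03 and 41.6 CPM with T4 and 64.2 and 68.6 CPM with DMSO and fell (-0.74 ± 0.15, adjusted p = 0.00368). DIO2, the other activating enzyme, was low in both groups, with 1.17 and 1.02 CPM with T4 and 2.602 and 2.27 CPM with DMSO (-1.15 ± 0.32, adjusted p = 0.0175). The DIO1 call was lost without the first T4 library, and the DIO2 call under 5 alternatives, with adjusted p-values of up to 0.106. Among transporters, the amino acid carrier SLC7A8, which also carries thyroid hormone, rose to 461 and 491 CPM, against 159.5 and 148 CPM with DMSO. THRA had 16.2 and 18.1 CPM with T4 and 34.6 and 25.98 CPM with DMSO and was lower (-0.82 ± 0.14, adjusted p = 0.001), but it overlaps the antisense gene NR1D1 and strand use in counting is not given in the sources used here. THRB had 70.04 and 72.3 CPM with T4 and 85.5 and 70.6 CPM with DMSO, and its groups overlapped (adjusted p = 0.298). RXRA and RXRB, the receptor partners, were not called (adjusted p = 0.0711 and 0.343).

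Genes known to respond to thyroid hormone gave no single direction. Of 25 tested, 6 were higher and 10 lower, and the median was -0.09. KLF9, a direct receptor target in many tissues, had 44.4 and 54.6 CPM with T4 and 34.2 and 33.4 CPM with DMSO and rose 1.47-fold (0.55 ± 0.11, adjusted p = 0.00282). HR, the corepressor Hairless and a target in brain and skin, fell to 8.61 and 6.81 CPM, against 13.4 and 13.4 CPM with DMSO (-0.79 ± 0.14, adjusted p = 0.00154). ME1, malic enzyme, a classic target in rodent liver, had 25.2 and 27.8 CPM with T4 and 27.4 and 27.9 CPM with DMSO and was not called (adjusted p = 0.651). THRSP, a lipogenic target in rodent liver, had 0.114 and 0.0568 CPM with T4 and 0 and 0.364 CPM with DMSO and was not tested.

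**Figure D3:**
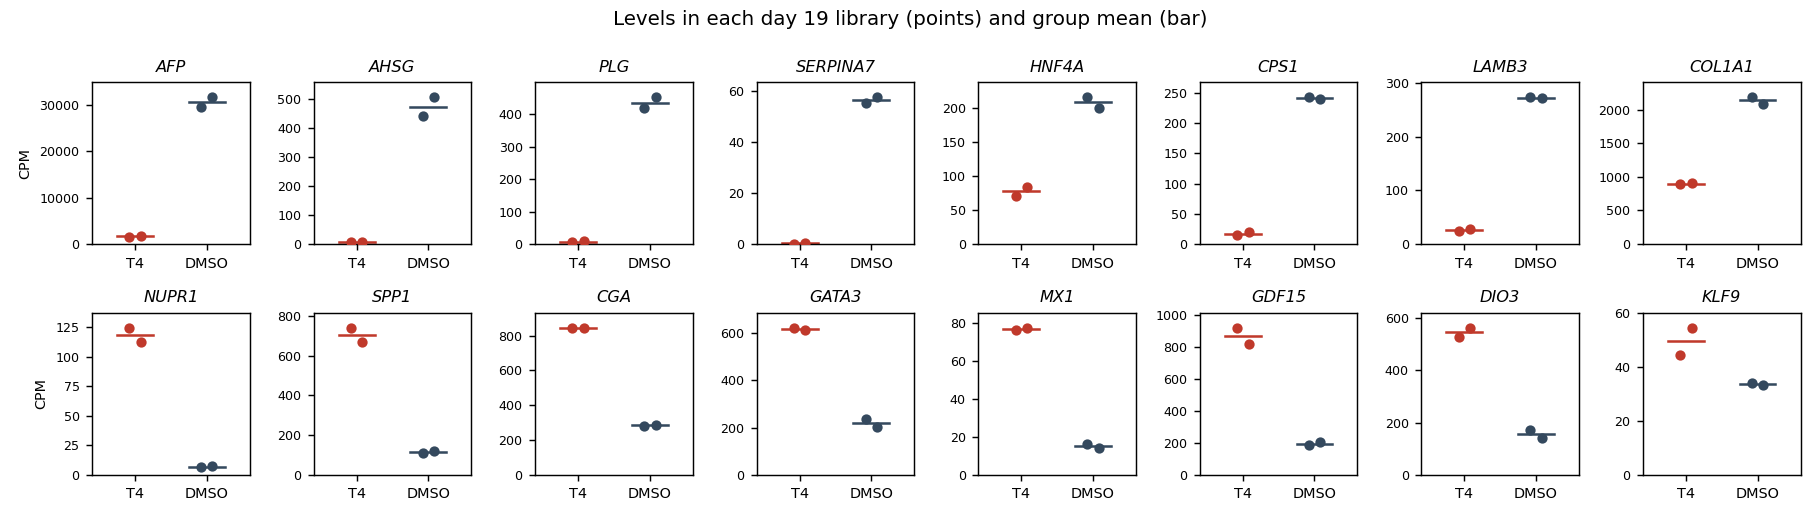
Each panel gives 1 gene's level (CPM, linear axis from 0) in the T4 and DMSO libraries of day 19, with points for libraries and a bar for the mean of 2. The upper row holds genes called lower and the lower row genes called higher, and in every panel the T4 and DMSO libraries are apart.

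The genes that rose most, among called genes with a mean of at least 5 CPM in a group and no overlap of libraries, had diverse known roles. MTPN, the topmost point of the plot of all genes, is outside this set and was named after its value was seen: it had counts in the first T4 library alone of these 4, and its call (adjusted p = 0.031) was lost without that library. The largest fold belonged to UGT1A4 (5.45 and 5.53 CPM with T4, 0 and 0.325 CPM with DMSO), which shares exons with its neighbours at the same locus. NUPR1, a small chromatin protein induced by stress, had 124 and 112 CPM with T4 and 6.56 and 7.31 CPM with DMSO, a 17.02-fold increase (4.09 ± 0.10, adjusted p = 2.03e-08). SPP1, the secreted phosphoprotein osteopontin, had 741 and 667 CPM with T4 and 111 and 119 CPM with DMSO (2.61 ± 0.09, adjusted p = 9.32e-08). The T4 libraries were far above the DMSO libraries for each of these genes. Others in this group were the inducible nitric oxide synthase gene NOS2 (77.2 and 78.1 CPM with T4, 12.3 and 10.2 CPM with DMSO), the secreted glycoprotein gene CHI3L1 (23.7 and 22.01 CPM with T4, 3.25 and 3.08 CPM with DMSO) and the gastrin gene GAST (7.65 and 6.55 CPM with T4, 1.14 and 0.704 CPM with DMSO). The homeobox gene BARX2 and the calcium-binding protein gene S100A9 were 8.43 and 6.62 times higher. TPPP3, P2RX2, PLAAT4, ATG9B, ATP6V1B1 and NPB were 8.46, 8.35, 8.16, 6.82, 6.78 and 6.62 times higher in turn. At the other end, the plasma protein genes ITIH2 and HRG were 48.2-fold and 27.2-fold lower. ERICH4, GLYAT, GNRH2 and SLC22A6 were 26.1, 22.4, 21.03 and 19.2 times lower. Over the alternatives the log2 fold change lay between -6.81 and -1.49 for ITIH2, -5.02 and -2.11 for HRG, and -4.63 and -4.08 for GNRH2. The decreases of the cytosolic 7SL RNA genes RN7SL2 and RN7SL1 rested on 1 library. RN7SL2 had 2.396 and 3.63 CPM with T4 and 131 and 6.77 CPM with DMSO, and RN7SL1 1.73 and 2.56 CPM with T4 and 72.6 and 2.92 CPM with DMSO, and neither was called without the first DMSO library.

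Promoters of these extreme genes were searched for the core receptor motif AGGTCA on both strands, since nuclear receptors such as THRB, HNF4A and PPARA bind sites built from it. RefSeq promoters (GRCh38.p14, 250 bases before to 50 after the start) were available for 20 of the 30 extreme genes, and 3 of these held the motif. They are shown because they are the members at the ends of the comparison that carry it, with the motif in capitals as AGGTCA or as its reverse complement TGACCT, on the strand of the gene. SLC22A7 (chr6:43298010-43298309, + strand) and GLYAT (chr11:58731894-58732193, - strand), which encodes a mitochondrial glycine acyltransferase, were lower with T4, and GAST (chr17:41712081-41712380, + strand) was higher.
SLC22A7: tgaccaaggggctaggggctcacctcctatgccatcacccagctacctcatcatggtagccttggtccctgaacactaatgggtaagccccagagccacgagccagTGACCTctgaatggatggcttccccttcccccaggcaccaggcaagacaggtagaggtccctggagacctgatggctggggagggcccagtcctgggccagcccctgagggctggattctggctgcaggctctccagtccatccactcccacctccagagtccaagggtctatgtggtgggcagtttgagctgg
GLYAT: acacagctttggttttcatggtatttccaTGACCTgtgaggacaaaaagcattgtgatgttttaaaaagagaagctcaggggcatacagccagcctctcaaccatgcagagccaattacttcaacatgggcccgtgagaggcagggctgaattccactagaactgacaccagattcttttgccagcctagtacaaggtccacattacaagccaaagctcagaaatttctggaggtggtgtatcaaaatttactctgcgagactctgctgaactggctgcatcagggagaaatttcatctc
GAST: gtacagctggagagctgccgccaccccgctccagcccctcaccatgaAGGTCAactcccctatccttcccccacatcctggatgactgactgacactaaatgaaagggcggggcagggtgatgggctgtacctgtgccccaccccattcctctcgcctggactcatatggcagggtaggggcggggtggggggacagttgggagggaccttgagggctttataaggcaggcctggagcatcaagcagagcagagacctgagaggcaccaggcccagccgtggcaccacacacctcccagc
Across the 13212 tested genes with a promoter in the table, 10.6% held the motif. The share was 20.2% (19 of 94) among genes at least 4-fold higher with T4 and 14.8% (35 of 237) among genes at least 4-fold lower. The direct repeat of AGGTCA with 4 bases between the copies, the arrangement preferred by thyroid hormone receptors, was in 0 of the 13212 windows, and the repeat with 1 base between was in 3. The FOXA core TGTTTAC was in 6.38% of promoters of genes at least 4-fold higher, in 2.53% of those at least 4-fold lower and in 2.44% of all, and the HNF1 palindrome was in 1 of all windows. A match describes letters in the window and no binding was measured.

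Markers of amnion and trophoblast, extraembryonic epithelia that human embryonic stem cells can also form, were higher in 14 and lower in 4 of 20 genes, with a median of 1.28. CGA, the alpha chain of the glycoprotein hormones, had 845 and 841 CPM with T4 and 281 and 288 CPM with DMSO (1.57 ± 0.09, adjusted p = 1.76e-06). The transcription factor GATA3 had 623 and 612 CPM with T4 and 235 and 202 CPM with DMSO (1.50 ± 0.11, adjusted p = 4.99e-06), and GATA2 295 and 304 CPM with T4 and 73.8 and 60.3 CPM with DMSO. These genes were present in both groups, and CGA, GATA3 and GATA2 were 2.97, 2.83 and 4.46 times higher with T4. TFAP2C, TFAP2A, the syncytin gene ERVW-1 and the chorionic gonadotropin gene CGB5, whose copies are nearly identical so that its reads are hard to place, also rose. HAND1 went the other way (68.6 and 63.3 CPM with T4, 110.0 and 115 CPM with DMSO, adjusted p = 0.00152), and VTCN1 was not called (178 and 173 CPM with T4, 208 and 190.4 CPM with DMSO). The list's summed level was 6830.4 and 6612 CPM in the T4 libraries and 3769 and 3545 CPM in the DMSO libraries, on the scale of all 12 libraries. All 20 members passed the filter on low counts, and the part of such cells in the other changes was not tested. Keratins rose in 6 and fell in 1 of 11. KRT23 had 289 and 291 CPM with T4 and 55.02 and 47.95 CPM with DMSO, KRT7 827 and 715 CPM with T4 and 281 and 287 CPM with DMSO, and KRT8 4270.3 and 3887 CPM with T4 and 2011 and 2069.8 CPM with DMSO.

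Stress genes, cell cycle inhibitors and p53 targets formed the other large block of increases. Of 28 tested genes of the ATF4 response, which supplies amino acids under stress, 23 were higher and 1 lower, with a median of 0.82. PSAT1, a serine synthesis enzyme, had 69.2 and 65.5 CPM with T4 and 20.1 and 24.4 CPM with DMSO (1.60 ± 0.10, adjusted p = 1.95e-06), and ATF4 itself 321 and 303 CPM with T4 and 169.9 and 181 CPM with DMSO (0.83 ± 0.08, adjusted p = 2.31e-05). Neither gene showed overlap between groups, and DDIT3, TRIB3, ASNS and CHAC1 were 2.14, 2.34, 2.13 and 3.82 times higher. Cytosolic aminoacyl tRNA synthetases, several of which ATF4 is known to induce, rose in 15 and fell in 1 of 20, led by SARS1 (199.7 and 185 CPM with T4, 101 and 102 CPM with DMSO). Chaperones of the endoplasmic reticulum rose in 13 and fell in 2 of 25, and cytosolic heat shock genes rose in 11 and fell in 0 of 17. The small heat shock protein gene HSPB1 had 1092 and 1002 CPM with T4 and 378 and 397 CPM with DMSO, and HSPB8 622 and 622 CPM with T4 and 235 and 222 CPM with DMSO. Genes of the NRF2 oxidative response rose in 11 and fell in 3 of 25, and metallothioneins, which are near-identical copies, rose in 5 and fell in 0 of 8. Of these MT1E, MT1G and MT1H were not called without the first T4 library.

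Cell cycle inhibitors and p53 targets rose in 20 and fell in 1 of 26 tested genes, with a median of 0.50. The stress cytokine gene GDF15, which is also in the ATF4 list, had 923 and 822 CPM with T4 and 185 and 204 CPM with DMSO and rose 4.48-fold (2.16 ± 0.10, adjusted p = 4.46e-07). CDKN1A, which encodes the cell cycle inhibitor p21, had 1201 and 1095 CPM with T4 and 545 and 580.4 CPM with DMSO (1.03 ± 0.08, adjusted p = 8.74e-06). Both groups were well apart for these genes, whereas CDKN1B and CDKN1C were not called (adjusted p = 0.535 and 0.582). DNA replication genes rose in 12 and fell in 1 of 30 (43.3% called, against 37.2% of all tested genes in either direction). Over all tested genes 18.1% rose and 19% fell, so the calls of this list lay mostly on the side of increases. Of its 30 members, 26 had a positive log2 fold change, with a median of 0.23. The number that rose was 5 with DESeq2 and without the first T4 library, 7 and 6 without the first and the second DMSO library, and at most 15 over the alternatives. Among the members called higher were CCNE1, the cyclin of the start of S phase (109 and 106 CPM with T4, 42.9 and 39.8 CPM with DMSO), and the sliding clamp gene PCNA (61.9 and 54.8 CPM with T4, 32.3 and 37.3 CPM with DMSO). Mitosis genes were called in far smaller number, 1 higher and 2 lower of 30, against 37.2% of all tested genes, and 3 were higher and 7 lower in the fit of all 12 libraries. CCNB1 was the member that rose. KIF20A, which fell, was not called without the first T4 or the first DMSO library. TOP2A, which also fell, was not called without either T4 library or the first DMSO library. Nor was TOP2A called with the DESeq2 test, with no filter or on either FPKM scale. MKI67, the proliferation marker, had 19.98 and 25.7 CPM with T4 and 30.8 and 21.7 CPM with DMSO and its groups overlapped.

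Interferon-stimulated and antigen presentation genes were higher in 20 and lower in 2 of 30, with a median of 1.18. MX1, an antiviral GTPase, had 76.00 and 77.3 CPM with T4 and 16.4 and 14.1 CPM with DMSO (2.33 ± 0.15, adjusted p = 2.5e-06), and the ubiquitin-like modifier ISG15 71.7 and 67.7 CPM with T4 and 23.7 and 24.7 CPM with DMSO (1.52 ± 0.16, adjusted p = 6.05e-05). The peptide transporter genes TAP1 and TAP2 were 2.74 and 2.598 times higher. The class I genes HLA-B and HLA-C and the light chain gene B2M were not called (adjusted p = 0.0958, 0.207 and 0.925). HLA genes are alike in sequence, which makes the placement of their reads uncertain. Acute phase and inflammatory genes showed 3 increases and 4 decreases of 12. Immediate early genes rose in 13 and fell in 3 of 20; the AP-1 subunit gene FOSL1 had 13.9 and 13.2 CPM with T4 and 2.87 and 3.46 CPM with DMSO.

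Collagens and matrix enzymes fell in 19 and rose in 4 of 33, and between 13 and 22 fell over the alternatives. LOX, the collagen cross-linking enzyme, had 23.4 and 25.2 CPM with T4 and 203 and 206 CPM with DMSO (-3.07 ± 0.19, adjusted p = 1.78e-06), and COL1A1, a chain of type I collagen, 886 and 909 CPM with T4 and 2186 and 2085 CPM with DMSO (-1.25 ± 0.10, adjusted p = 9.25e-06). The protease inhibitor TIMP3 rose to 1525 and 1397 CPM, against 407 and 368 CPM with DMSO. Integrins and laminins had no common direction, with 4 increases and 7 decreases of 24 and a median of -0.10. Their share called was 45.8%, near the 37.2% of all tested genes. Decreases numbered 4 without the first T4 or the first DMSO library and on the FPKM scale, where 7 increases were called, and increases numbered 2 without the second T4 library. LAMB3, a laminin chain of epithelial basement membranes, had 25.03 and 29.1 CPM with T4 and 274 and 272 CPM with DMSO (-3.34 ± 0.09, adjusted p = 2.64e-08). Of the 29 tested mesenchyme and stellate cell markers, 13 were lower and 5 higher, and their summed level was 4771 and 5171 CPM with T4 and 8105 and 8023 CPM with DMSO. Without the first T4 library 7 were lower and 0 higher, and without any 1 of the other 3 libraries 2 were higher. FAP and PRRX1, of that list, were below the filter. The part of such cells in the matrix changes was not tested.

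Markers of other lineages were mixed. Their levels are given as sums on the scale of all 12 libraries. Intestine and pancreas genes, several of which fetal liver cells share, fell in 10 and rose in 2 of 16, led by the microvillus gene VIL1 (55.1 and 63.6 CPM with T4, 269.5 and 259 CPM with DMSO), with a summed level of 1379 and 1655 CPM with T4 and 2970.2 and 2812 CPM with DMSO. Bile duct and progenitor genes split evenly, 7 higher and 7 lower of 18 (4 lower without the first T4 or the first DMSO library), with a summed level of 5178 and 4828 CPM with T4 and 3833 and 3904 CPM with DMSO. Neural genes rose in 4 and fell in 2 of 10, with a summed level of 293 and 276 CPM with T4 and 169.7 and 158 CPM with DMSO. Lung and stomach genes rose in 4 and fell in 1 of 7, and their summed level was 168 and 191 CPM with T4 and 53.2 and 50.7 CPM with DMSO. The part of any of these lineages in the results above was not tested. Heart muscle genes fell in 8 and rose in 1 of 12, with a summed level of 427 and 416 CPM with T4 and 634 and 658 CPM with DMSO. Endothelial genes fell in 5 and rose in 3 of 16 (3 fell without the first T4 library), whereas their summed level was higher with T4, at 621 and 646 CPM with T4 and 377 and 370.2 CPM with DMSO. ENG had 227 and 228 CPM with T4 and 61.96 and 62.8 CPM with DMSO, whereas PECAM1, a defining marker, had 7.34 and 10.9 CPM with T4 and 21.3 and 21.5 CPM with DMSO. Of the 18 blood cell markers 8 were tested, and PTPRC, SPI1, GATA1 and TAL1 were below the filter; 4 of the tested genes were lower and 1 higher, with 1 lower under DESeq2 and without the first T4 library and 2 with either DMSO library left out. The summed level of the list was 196 and 193 CPM with T4 and 169.8 and 171 CPM with DMSO. Pluripotency genes rose in 6 and fell in 2 of 18 (44.4% called). Over all tested genes 37.2% were called, 18.1% higher and 19% lower. With DESeq2 3 rose, and fewer than 6 rose without the first T4 or the first DMSO library. Their summed level was 486 and 514 CPM with T4 and 487 and 465 CPM with DMSO. LIN28A, a fetal RNA-binding protein, had 43.99 and 40.8 CPM with T4 and 26.6 and 25.1 CPM with DMSO (0.72 ± 0.08, adjusted p = 9.76e-05). POU5F1, NANOG and DNMT3B were not called (adjusted p = 0.926, 0.936 and 0.371). Their levels were 3.16 and 4.76 CPM with T4 and 3.79 and 3.95 CPM with DMSO for POU5F1, and 0.968 and 0.972 CPM with T4 and 1.25 and 0.758 CPM with DMSO for NANOG.

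The signalling lists had members called in both directions, to be read against the 37.2% of all tested genes that were called, 18.1% higher and 19% lower. WNT pathway genes were higher in 11 and lower in 17 of 44 (63.6% called), with 11 lower without the first T4 library and on the FPKM scale. The secreted antagonists SFRP5 (4.74 and 5.99 CPM with T4, 41.7 and 45.1 CPM with DMSO) and SFRP2 (39.2 and 37.9 CPM with T4, 88.7 and 81.2 CPM with DMSO) were among the decreases. FGF pathway genes were higher in 2 and lower in 8 of 21 (47.6% called). Only 2 were lower without the first T4 library and 5 without the second DMSO library or with DESeq2, and 2 to 10 over the alternatives. FGFR4 and its partner KLB, which form the liver receptor for FGF19, had 159.5 and 179.6 CPM with T4 and 419 and 423 CPM with DMSO for FGFR4, and 80.6 and 104 CPM with T4 and 259 and 236 CPM with DMSO for KLB, and both fell. TGF-beta and BMP genes gave 9 increases and 13 decreases of 38 (57.9% called), with 8 decreases on log2(FPKM + 0.1). YAP and SRF targets gave 9 increases and 3 decreases of 21 (57.1% called). Their increases numbered 3 without the first T4 library and 4 without the second T4 or the first DMSO library. IGF genes had 8 increases and 5 decreases of 29, and Notch genes 6 increases and 2 decreases of 18. They were called in 44.8% and 44.4%, near the share called in either direction over all tested genes. The IGF increases numbered 5 without the first T4 or the second DMSO library. DNA methylation and Polycomb genes were higher in 8 and lower in 1 of 24 (37.5% called), so their calls lay mostly on the side of increases. The histone methyltransferase gene EZH2, of that list, had 18.7 and 20.5 CPM with T4 and 6.34 and 7.14 CPM with DMSO. Hypoxia response genes were split, 7 higher and 9 lower of 19, and so were lysosomal genes, 8 higher and 12 lower of 30.

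Lists of housekeeping machinery had medians near 0. Of 58 cytosolic ribosomal protein genes 4 were higher and 0 lower, with a median of 0.06, and the median was between -0.03 and 0.18 over the alternatives. The members called, RPL12, RPLP1, RPS2 and RPS19, were not called without the first T4 library. Of 30 oxidative phosphorylation genes 0 were higher and 6 lower, with a median of -0.13, which moved to -0.00 on the FPKM scale; 3 were lower without the first T4 library and 13 in the fit of all 12 libraries. Proteasome genes were higher in 11 and lower in 0 of 29 (37.9% called), against 18.1% higher and 19% lower over all tested genes. Of these 29 genes, 28 had a positive log2 fold change, with a median of 0.16. Fewer were called higher without the first T4 or the first DMSO library, and 22 on the FPKM scale. The counts of several lists with large medians moved less. Plasma carriers were lower in 21 to 23 of 24 genes, cholesterol genes in 21 to 26 of 26, ATF4 genes higher in 23 to 25 of 28, and interferon genes in 17 to 23 of 30.

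T3, which lacks one of the iodine atoms of T4, was given at the same 30 nM and read at the same day 19. T4 and T3 share the DMSO libraries, so they were compared with each other directly in the same fit, the only pair of compounds in the series. Between them 1478 genes were called, 8.65% of those tested, 671 higher with T4 (3.93%) and 807 lower (4.72%). The 10 genes with the smallest p and at least 5 CPM in a group had levels with T4 that lay between those with T3 and those with DMSO. SLC22A7 had 5.51 and 5.43 CPM with T4, 0.969 and 0.948 CPM with T3 and 147 and 149 CPM with DMSO. The difference of T4 from T3 was 2.50 on the log2 scale (95% interval 2.14 to 2.87, adjusted p = 0.000132). LEAP2, a liver peptide that opposes the ghrelin receptor, had 13.3 and 14.1 CPM with T4, 3.34 and 3.47 CPM with T3 and 87.4 and 89.3 CPM with DMSO (2.004, 1.75 to 2.26, adjusted p = 8.19e-05). NUPR1 had 124 and 112 CPM with T4, 289 and 288 CPM with T3 and 6.56 and 7.31 CPM with DMSO (-1.29, -1.47 to -1.11, adjusted p = 9.88e-05). For SLC22A7 and LEAP2 the T4 libraries lay above the T3 and below the DMSO libraries, and for NUPR1 below the T3 and above the DMSO libraries. The synaptic adhesion gene CLSTN2 and the endothelial coreceptor gene ENG were also lower with T4 than with T3 (-1.87 and -0.96 on the log2 scale), and SFRP2, TGFBI, GABRP, MTUS2 and ETNK2 were higher (1.50, 1.21, 1.22, 1.06 and 1.27 in turn).

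**Figure D4:**
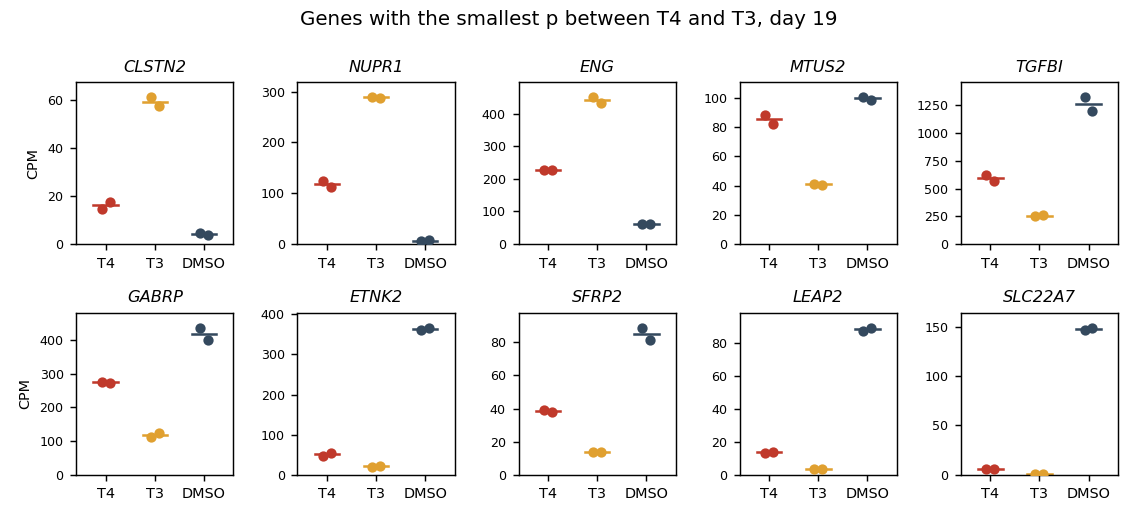
Each panel gives a gene's level (CPM, linear axis from 0) in the T4, T3 and DMSO libraries of day 19, with points for libraries and bars for means of 2, for the 10 genes with the smallest p between T4 and T3. In every panel the T4 libraries lie between the T3 and the DMSO libraries.

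Among the lists, 12 of 24 plasma carrier genes were called higher with T4 than with T3 and 0 lower, with a median of 1.16 against 0.00 over all tested genes. For AFP the T4 libraries had 1506 and 1821 CPM and the T3 libraries 387 and 581 CPM (difference 1.78, 1.40 to 2.17, adjusted p = 0.000629). Apolipoprotein genes were higher with T4 in 10 of 16 and lower in 0, clotting genes higher in 9 of 19 and lower in 0, and mitosis genes higher in 11 of 30 and lower in 0. ATF4 response members had lower levels under T4 than under T3 in 15 of 28 and higher in 1, tRNA synthetases lower in 8 of 20 and higher in 0, and amnion and trophoblast genes lower in 9 of 20 and higher in 5. DIO3 had 527 and 562 CPM with T4 and 885 and 714 CPM with T3 (-0.55, -0.81 to -0.29, adjusted p = 0.0192). That call was lost under 6 alternatives, among them without either T4 library or the first T3 library, with adjusted p-values of up to 0.171. Interferon genes were lower in 2 and higher in 0 of 30, and for MX1 the interval of the difference was -0.23 to 0.37 (adjusted p = 0.81). For SPP1 it was -0.24 to 0.13 (adjusted p = 0.752), and for KLF9 -0.47 to -0.01 (adjusted p = 0.206). The count of calls between the hormones depended on single libraries: it was 267 without the first T4 library, 190 without the second, and 527 without the first T3 library. On the FPKM scale 65.8% of the calls were higher with T4, against 45.4% in the count fit.

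The T4 effect was also compared with that at day 7, which the labels call hepatoblasts, in a fit of all 12 libraries that share one estimate of spread. The day 7 cells had the same labelled agents, 30 nM T4 or 0.1% DMSO, in 2 libraries each, and the days have no library in common. Libraries varied less at day 7, so the shared estimate tends to understate the error at day 19 and overstate it at day 7. The biological coefficient of variation was 5.42% in this fit, against 7.478% in the fit of the day 19 libraries alone. The latter fit called 6352 genes between T4 and DMSO. Counts of the 2 days below are therefore not on an equal footing, and the differences between the days rest on the same estimate. In the 12-library fit 7753 genes were called at day 19 (42.8% of 18101) and 1162 at day 7 (6.42%), 706 of them higher (3.9%) and 456 lower (2.52%). Of these 725 were called on both days, 9.35% of the day 19 calls and 62.4% of the day 7 calls, with 525 in the same direction and 200 in opposite directions. The difference of the effects itself was called for 5018 genes (27.7%), 2250 with a more positive effect at day 19 (12.4%) and 2768 with a more negative one (15.3%). For AFP the effect was -4.20 at day 19 and -0.89 at day 7 (difference -3.31 ± 0.19 SE, adjusted p = 4.53e-08). For KLF9 it was 0.54 and 0.49 in that order (difference 0.05 ± 0.17, adjusted p = 0.857). The pluripotency factor NANOG had an effect of -0.05 at day 19 and 2.19 at day 7 (difference -2.24 ± 0.36, adjusted p = 0.000318), and DIO3 of 1.80 and 0.82 (difference 0.97 ± 0.17, adjusted p = 0.00074). AFP thus fell and DIO3 rose on both days, each by more at day 19.

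The 10 genes with the smallest p of that difference among those called on both days in opposite directions were C3, PADI2, SFRP2, ST6GAL1, GATM, SEMA6B, LDHA, ACKR3, RIPOR2 and DUSP4. SFRP2 changed by -1.15 ± 0.06 at day 19 and by 1.46 ± 0.07 (SE) at day 7. At day 7 its level was 39.5 ± 1.296 CPM with T4 and 14.3 ± 0.770 CPM with DMSO (SD, n = 2 each). ST6GAL1, a sialyltransferase of secreted glycoproteins, changed by -2.07 at day 19 and 0.37 at day 7, and DUSP4, a phosphatase that limits MAP kinases, by 1.30 at day 19 and -0.96 at day 7. LDHA was lower with T4 at day 19 (-1.03) and higher at day 7 (0.32), and the same order held for GATM, an enzyme of creatine synthesis (-1.42 and 0.53), PADI2 (-3.05 and 0.56), C3 (-2.56 and 0.67) and SEMA6B (-1.17 and 0.23). The scavenging chemokine receptor ACKR3 and RIPOR2 were higher with T4 at day 19 (1.59 and 1.81) and lower at day 7 (-0.34 and -0.43). These genes were chosen for opposite directions, so the directions are a description.

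**Figure D5:**
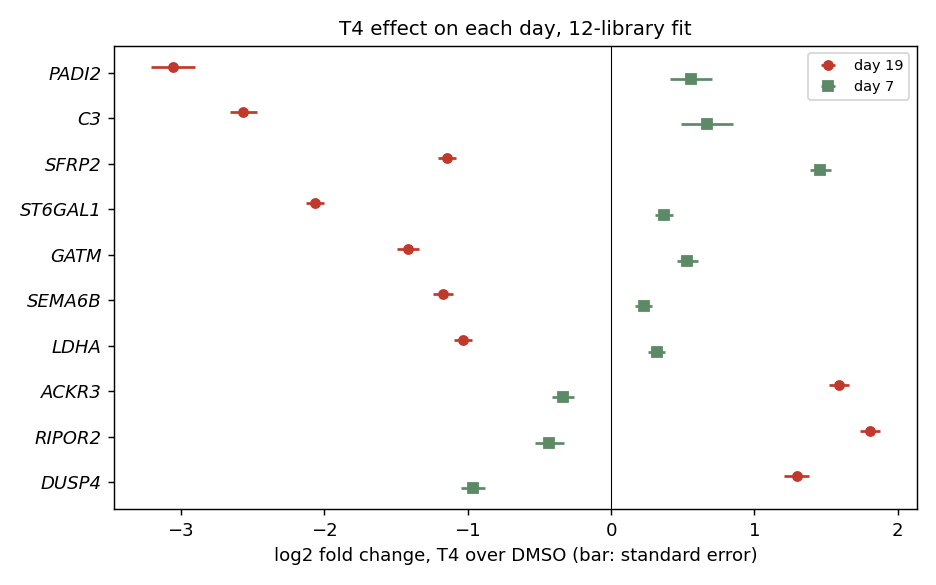
Each row is a gene of opposite direction on the 2 days, with its log2 fold change of T4 over DMSO at day 19 (circles) and day 7 (squares) and the standard error of each in the 12-library fit. The day 19 and day 7 values lie on opposite sides of 0 for all 10 genes, which is how they were chosen.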

How the data were processed

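Each of the 12 libraries came as a table of transcripts with the deposited expected counts and FPKM values of the authors, per the file headers. The submitters' processing notes name HISAT, Bowtie2, RSEM and hg38 without roles or versions, and strand use in counting is not given in the sources used here. Total RNA was extracted with Trizol and made into Illumina libraries, per the labels' protocols. Expected counts of all transcript rows with the same gene identifier were added and rounded to whole numbers. Gene symbols and coordinates came from RefSeq (GRCh38.p14), which matched 23801 of 23922 genes; the other 121 held at most 0.145% of the counts of any library.

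The groups came from the labels. edgeR 4.0.16 (filterByExpr, TMM, glmQLFit and glmQLFTest) in R 4.3.3 was fitted to the 6 day 19 libraries (T4, T3 and DMSO, 2 each), and the T4 effect at day 19 minus that at day 7 to all 12. A call needed an adjusted p of at most 0.05 (Benjamini-Hochberg over all tested genes), and the standard error is the log2 fold change over the root of F. The residual degrees of freedom were 3, and the biological coefficient of variation was 7.478%. Levels are CPM on the TMM scale of the fit, which are not divided by gene length, so they compare libraries and not genes. In simulated counts for T4 against DMSO (16844 genes tested), 93 of 100 genes changed 2-fold and 100 of 100 changed 4-fold were recovered, with 24 false calls. The changed genes were drawn only from genes of higher counts, and the simulated spread was that of the same fit. Recovery of genes of low level was therefore not measured. Far fewer genes were changed in the simulation than were called in the data. No 2 libraries of a group were identical.

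Genes were named by rule: the 15 largest and 15 smallest called fold changes with at least 5 CPM and no overlap of the groups, the 5 smallest p-values of each list, members at 0 in a group, a fixed set of hormone and liver genes, the 10 smallest p-values between T4 and T3, and the 10 for the days with opposite effects. Other list members, such as ATF4, DDIT3, FGA, GATA3, MKI67, SCD and PZP, were chosen after their values were seen. The members and lists were chosen with earlier results of these data known, and lists overlap in their members. Reads of overlapping genes cannot be told apart, which touches ABCG5 and ABCG8, ATG9B and NOS3, LIPA, NPB, PZP, TF, ERVW-1, DDIT3, PCNA, VIL1, KRT8 and KRT18, THRA and the UGT1A genes. Some genes are not reported here. Copies alike in sequence (CGB5, keratins, metallothioneins, HLA) are likewise uncertain.

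The alternatives were DESeq2 1.42.0 (its test and its size factors), no filter, all 12 libraries, the 4 libraries compared alone, each library left out (the lone library is then taken to vary like the other groups), the replicate number as a block, limma 3.58.1 on log2(FPKM + 0.1) and log2(FPKM + 1), and removal of the 10 most abundant genes. Fold changes on the FPKM scales understate changes of low genes. Tables and figures were made with Python 3.11.15, pandas 2.3.3, numpy 2.4.6, scipy 1.17.1 and matplotlib 3.10.9.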

Additional observations from a re-analysis of the deposited data

Results flagged for a closer look

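The effect of T4 differed between day 19 and day 7 for 5018 genes (difference of the log2 fold changes in the 12-library edgeR quasi-likelihood fit, Benjamini-Hochberg adjusted p at most 0.05), which is why the day is given a closer look. Among the genes described, the difference (day 19 minus day 7) was -3.61 for PADI2, -3.31 for AFP, -3.24 for C3, -2.61 for SFRP2, -2.44 for ST6GAL1, -2.24 for NANOG, -1.95 for GATM, -1.40 for SEMA6B and -1.35 for LDHA. It was above 0 at 2.26 for DUSP4, 2.24 for RIPOR2, 1.92 for ACKR3 and 0.97 for DIO3. AFP and DIO3 kept their direction on both days, and NANOG was called only at day 7 (adjusted p = 0.918 at day 19 and 5e-06 at day 7). The spread between libraries was larger at day 19, with a chi-square per gene between the 2 libraries of 4.954 for T4 and 7.052 for DMSO, against 1.623 for T4 and 1.585 for DMSO at day 7. Both days shared an estimate of spread in the 12-library fit, which tends to understate the error at day 19.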

How the results depend on the processing

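The 6352 calls of T4 against DMSO stayed within 1.5 times under every alternative run (4938 with DESeq2 to 7753 with all 12 libraries) apart from leaving out a library, where they numbered 3947 to 5148. The 1478 calls of T4 against T3 moved to 782 with no filter and 2848 with all 12 libraries, and lay between 190 and 1732 with a library left out. The 5018 genes whose effect differed between the days lay between 3812 and 4768 with a library left out and between 4705 and 5024 otherwise. The cause of these moves was not tested. Of 401 single gene results 376 were called. Of these, 340 kept the call under every alternative that gave them a value, 36 lost it under at least 1, and none changed sign. These genes were named largely for extreme fold changes or small p-values, so the shares called and kept do not describe all genes. Of all 6352 calls of T4 against DMSO, 4921 were also called with the DESeq2 test and 5259 with limma on log2(FPKM + 0.1). Without the first T4 library, the losses included DIO1, DIO2, TOP2A, SOX2 and MTUS2 (against DMSO).

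Signs turned only for genes that were not called, shown as log2 values. With each library left out in turn, the lowest and highest values were -0.15 to 0.13 for CYP3A4, -0.44 to 0.070 for MKI67, -0.36 to 0.35 for NANOG, -0.29 to 0.296 for POU5F1, -0.27 to 0.0080 for THRB, -0.099 to 0.061 for B2M, -0.13 to 0.0077 for ME1 and -0.51 to 0.024 for TAT against DMSO, -0.14 to 0.33 for MX1 and -0.13 to 0.019 for SPP1 between T4 and T3, and -0.099 to 0.19 for KLF9 between the days. On log2(FPKM + 0.1) and log2(FPKM + 1), in that order, the values were 0.107 and 0.107 for B2M, 0.056 and 0.056 for CDKN1C, 0.074 and 0.018 for CYP3A4, 0.0067 and 0.0063 for FOXA2, 0.061 and 0.055 for ME1, 0.13 and 0.043 for NANOG, and 0.0058 and 0.0058 for SPP1 between T4 and T3, while THRB had 0.00022 on the first.

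Deviations of same-numbered libraries from their group means correlated at -0.334 between T4 and DMSO (10328 genes). The correlation was 0.158 between T4 and T3 and 0.409 between T3 and DMSO. The signs differ, so whether the libraries were paired is not settled. With the replicate block 6109 genes were called between T4 and DMSO, 1396 between T4 and T3 and 4965 between the days, and a crossed block, added after seeing the data, gave 7312 for T4 against DMSO. With 2 libraries a group from 1 cell line, genes of low level are the least certain: 12.2% of those below 1 CPM were called. On log2(FPKM + 1) 66.3% of 6818 calls were higher.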

Other observations

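The transcript that held the largest share of a gene's expected counts differed between T4 and DMSO in 41 of 5969 genes with at least 2 listed transcripts and at least 200 counts in each of the 4 libraries, where it also had to gain a share of at least 0.3. The genes named next were chosen after their values were seen, and no test was run. For CIDEC, a lipid droplet protein gene, the transcript leading with T4 held 94.5% and 95.1% of the gene's counts in the T4 libraries, against 0.917% and 0% in the DMSO libraries. For PRKAG2, a regulatory subunit of AMP-activated kinase, it held 77.1% and 50.2% with T4 and 6.36% and 4.40% with DMSO, and for the polycystin gene PKD1 63.3% and 70.7% with T4 and 5.40% and 10.6% with DMSO. For KITLG, the ligand of the KIT receptor, it held 77.1% and 68.0% with T4 and 41.3% and 0% with DMSO, so the DMSO libraries differed from each other. Expected counts divide reads that fit several transcripts, and this division is uncertain.

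IGF2, the fetal growth factor, had 11759 and 12640.2 CPM with T4 and 10299.7 and 11017 CPM with DMSO and was not called (0.19 ± 0.10, adjusted p = 0.147). DLK1, a Notch-like hepatoblast surface protein, was lower (log2 fold change -1.18, adjusted p = 0.00093). The share of genes called was 12.2% below 1 CPM and 28.3% between 1 and 10 CPM, 43.4% between 10 and 100, 53.8% between 100 and 1000 and 53.01% at or above 1000 CPM, and it was 40.2% of 14997 protein coding genes and 15.2% of 1501 long non-coding RNA genes.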
